A study of Mus musculus with 12 samples.

Results

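The 3 neuronal pentraxin genes of the mouse, Nptx1, Nptx2 and Nptxr, were followed across cell classes of the P21 cortex and between MYT1L Het and WT animals. They were taken by gene symbol from the 55335 genes of the deposited matrices. The genes were selected on measured values of these data: Nptx1 had been found higher in MYT1L Het than in WT nuclei of layer 6 corticothalamic (L6 CT) neurons in these same animals. That contrast is therefore described here without a test, as is every sum of nuclei that holds those neurons. Het against WT in other nuclei, and every value of Nptx2 and Nptxr, were not used in the choice of Nptx1, but they come from the same 12 animals.

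The study profiled single nuclei from the dissected cortex of 6 WT mice and 6 mice heterozygous for a frameshift mutation of Myt1l (MYT1L S710fsX, kept on a C57BL/6J background), with 3 males and 3 females of each genotype, all at P21. Per the study's methods, the pups of this age had also received AAV9 carrying the calling cards constructs hyPB and H2b-tdT-SRT into the ventricles shortly after birth, in both genotypes, so every animal carries that vector. MYT1L is a zinc finger transcription factor of neurons, and the mutation is in every cell of the animal, so no class is an untouched control. Of 78743 barcodes, 33116 nuclei were kept, 14344 from WT and 18772 from MYT1L Het, and no barcode was shared between animals. Per the study's methods, each animal was 1 sample marked by barcodes of its own, and the animals of this age were then pooled and prepared as 1 batch. That no barcode was shared follows from this design. The p-values of Het against WT measure the spread between animals, each counted as independent. Per the study's methods, the animals came from several litters and were generally littermates. Litter is not labelled, so it was not modelled.

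Neuronal pentraxins are proteins of the synapse. NPTX1 and NPTX2 are secreted, whereas NPTXR is anchored in the membrane, and the proteins assemble with one another into complexes. These complexes bind AMPA-type glutamate receptors and gather them at synapses, including excitatory synapses on Pvalb interneurons, and Nptx2, also known as Narp, is an immediate early gene of neuronal activity. Each protein ends in a pentraxin domain of the kind that defines C-reactive protein and serum amyloid P component.

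On the mm10 build, Nptx1 lies on the minus strand at chr11:119538719-119547753, Nptx2 on the plus strand at chr5:144545902-144557478 and Nptxr on the minus strand at chr15:79786351-79804766, and each has 5 exons. To show what the family shares, a 60-base stretch of coding sequence from exon 4 is given for each gene from the GENCODE M21 transcripts, 5′ to 3′, with capitals at the bases that are not the same in all 3. In that stretch 42 of 60 bases were identical in the 3 genes.
Nptx1 (bases 1011 to 1070 of a coding sequence of 1299, chr11:119543189-119543248): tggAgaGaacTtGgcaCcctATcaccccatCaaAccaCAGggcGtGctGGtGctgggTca
Nptx2 (bases 996 to 1055 of 1290, chr5:144555410-144555469): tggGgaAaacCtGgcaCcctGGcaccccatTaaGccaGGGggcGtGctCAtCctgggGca
Nptxr (bases 1191 to 1250 of 1482, chr15:79790273-79790332): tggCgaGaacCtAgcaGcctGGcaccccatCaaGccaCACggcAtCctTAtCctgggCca

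Over the aligned coding sequences, identity was 64.1% between Nptx1 and Nptx2, 59.9% between Nptx1 and Nptxr and 60.6% between Nptx2 and Nptxr. A UMI (a count of 1 captured RNA molecule) that fitted several genes was divided among them by the authors' pipeline, so an entry that is not whole shows sharing. Of the entries for Nptx1, 99.9% were whole, and of those for Nptx2, 99.2%. For Nptxr the share was 86.3%. Nptxr shares 890 of its 5170 exonic bases with Npcd, a read-through gene on the same strand at chr15:79789675-79834237, and the 60 bases printed above lie among them. Only 23.6% of the Npcd entries were whole. The counts of Nptxr are therefore uncertain by the part that was divided with Npcd, and 8147 UMIs were assigned to Nptxr against 779 to Npcd.

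Classes were cut from clusters of nuclei with panels of marker genes, and the 3 pentraxins were kept out of the genes used for clustering. A class is called "X-like" after its panel. The 15 classes tested comprised L6 CT-like (4242 nuclei), L2/3 IT-like (2761), L4/5 IT-like (2391), L5 NP-like (1179), DG-like (779) and Car3/claustrum-like (273) excitatory neurons, 5 interneuron classes, striatal projection neuron-like, oligodendrocyte-like, OPC-like and astrocyte-like nuclei. IT marks intratelencephalic neurons, NP near-projecting neurons and DG granule cells of the dentate gyrus, and where in the tissue the DG-like and striatal projection neuron-like nuclei came from was not tested. A marker kept out of the panels was highest in its own class for L6 CT-like nuclei (Tle4, 598 CPM) and for 11 other classes, but not for L2/3 IT-like (Stard8), L4/5 IT-like (Brinp3, the 5th highest of 15) and DG-like nuclei (Glis3). For Sncg-like nuclei that marker, Krt73, was at 1.25 CPM against 0.75 in Vip-like nuclei, too low to check the class. Of the 33116 nuclei, 14391 stayed in clusters without a name. UMIs were summed per animal and class and are given as CPM, the count scaled to 1000000 UMIs of that sum. CPM is not corrected for gene length, so levels are compared between classes for 1 gene, not between genes.

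All 3 genes were mainly genes of excitatory nuclei. Excitatory nuclei held 65.4% ± 5.19 of all UMIs (SD, n = 12 animals) but 95.1% ± 1.40 of the Nptx1 UMIs. They held 86.5% ± 5.46 of the Nptx2 UMIs and 87.0% ± 2.27 of the Nptxr UMIs. Within the excitatory nuclei the genes parted: L6 CT-like nuclei held 12.9% ± 1.54 of all UMIs, and 32.2% ± 4.91 of those of Nptx1 and 24.3% ± 5.07 of those of Nptx2, but 4.99% ± 1.33 of those of Nptxr.

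Nptx1 was at its highest in L6 CT-like and DG-like nuclei, and the order of their medians was not the same in WT and in Het animals. Over the 12 animals it ranged from 72.8 to 163 CPM in L6 CT-like nuclei (median 119) and from 51.2 to 151 CPM in DG-like nuclei (median 101). In WT animals alone the DG-like median, 88.8 CPM, was above the L6 CT-like median of 84.8 CPM, whereas among the Het animals L6 CT-like nuclei had the higher median, 134 CPM against 108 CPM. Levels of Nptx1 in L6 CT-like nuclei hold the values the gene was chosen on and are given without a test. Other neighbours in the order were compared within animals by exact paired permutation, adjusted over the 14 neighbouring pairs of classes for a gene. For each gene the order was set by the medians of these same values. Which pairs were compared, and in which direction, was thus picked from the data tested, and the p-values do not allow for that. DG-like nuclei stood above L2/3 IT-like nuclei, the third in the order, by 1.08 ± 0.38 (SD) on the log2(CPM + 1) scale in 12 of 12 animals (exact permutation, p = 0.000488, adjusted p = 0.00684), where 0.000488 is the smallest p that 12 animals allow. L2/3 IT-like nuclei ranged from 27.6 to 67.1 CPM (median 48.8) and L5 NP-like nuclei from 27.2 to 74.5 (median 43.4), and their order was not resolved (difference −0.01 ± 0.41, adjusted exact permutation p = 0.927). L5 NP-like nuclei stood above L4/5 IT-like nuclei (15.5 to 64.4 CPM, median 33.9) by 0.40 ± 0.38 in 10 of 12 animals (adjusted exact permutation p = 0.0137). Car3/claustrum-like nuclei ranged widely, from 0 to 106 CPM, on 35 UMIs in all.

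In the other 9 named classes Nptx1 was low. Striatal projection neuron-like nuclei had a median of 12.3 CPM, OPC-like nuclei 8.15, Pvalb-like nuclei 3.75, Sst-like nuclei 3.73 and oligodendrocyte-like nuclei 3.03, and no neighbouring pair among them differed by the exact permutation test. Unnamed excitatory clusters 3, 18, 10 and 12 had medians of 87.8, 86.6, 60.1 and 59.8 CPM. The median animal had no Nptx1 UMI in Lamp5-like, Sncg-like or Vip-like nuclei. None was counted in 134 astrocyte-like nuclei, a count that allows up to 9.26 CPM (3 counts of the total, counting error only). In the order of classes for Nptx1, 2 of 14 neighbouring pairs differed.

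Nptx2, the activity-regulated member, was much the sparsest, with 1164 UMIs in the whole set against 5156 for Nptx1. Among the 15 named classes it was highest in L6 CT-like nuclei, with 13.7 to 25.4 CPM (median 19.0). Unnamed clusters 18, 16 and 3 had higher medians, of 25.5, 20.9 and 19.8 CPM, on 41, 33 and 129 UMIs. L2/3 IT-like nuclei followed with 4.88 to 18.2 CPM (median 14.1). That step, 0.57 ± 0.41 in 12 of 12 animals, was the 1 neighbouring pair of 14 that differed for Nptx2 (exact permutation, adjusted p = 0.00684). It too is a pair picked by the order of the values tested. A wider set of nuclei had no upper limits on UMIs and genes and no limit on log genes over log UMIs. Its added nuclei took the cluster of their nearest neighbours. In that set L6 CT-like minus L2/3 IT-like nuclei was 0.15 and 0 of 14 neighbouring pairs differed. The clusters that make up the L6 CT-like class were not alike. Cluster 4 had median Nptx2 of 22.7 CPM in WT and 40.6 in Het, cluster 0 had 14.9 and 16.9, and cluster 14 had 8.47 and 6.23. In L2/3 IT-like nuclei these medians were 12.7 and 14.3 CPM. The genotypes overlapped in cluster 4, with 6.6 to 52.3 CPM in WT and 4.3 to 48.2 CPM in Het. Nptx2 was not called there (log2 fold change 0.41, SE 0.33, adjusted p = 0.695, edgeR, 0.827% of genes called). L4/5 IT-like nuclei (median 12.8 CPM) and Car3/claustrum-like nuclei (10.7) came next, and L5 NP-like nuclei had a median of 2.14 CPM. In DG-like nuclei, where Nptx1 was high, Nptx2 was close to the floor of detection: no UMI was counted in the 6 WT animals, which allows up to 3.17 CPM over the group, and 5 were counted in the 6 MYT1L Het animals.

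Nptxr, the membrane-bound member, followed another order. Among the named classes it was highest in L2/3 IT-like nuclei, with 99.9 to 209 CPM and a median of 150. L4/5 IT-like nuclei came second with 84.6 to 151 CPM and a median of 123, below the medians of unnamed clusters 3, 5 and 10 (136 CPM each) and lower than L2/3 IT-like nuclei by 0.33 ± 0.21 in 12 of 12 animals (exact permutation, adjusted p = 0.00684). DG-like nuclei had a median of 117 CPM and L5 NP-like nuclei 79.7, and neither differed from its neighbour. The step from Car3/claustrum-like (51.4 CPM) to Vip-like nuclei (36.1 CPM) was 0.86 ± 0.81 in 10 of 12 animals (adjusted exact permutation p = 0.0410). L6 CT-like nuclei were number 10 of the 15 classes with 14.3 to 38.0 CPM and a median of 27.7, among the interneuron classes. In the sum of all inhibitory nuclei Nptxr ranged from 21.4 to 46.2 CPM.

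**Figure D1:**
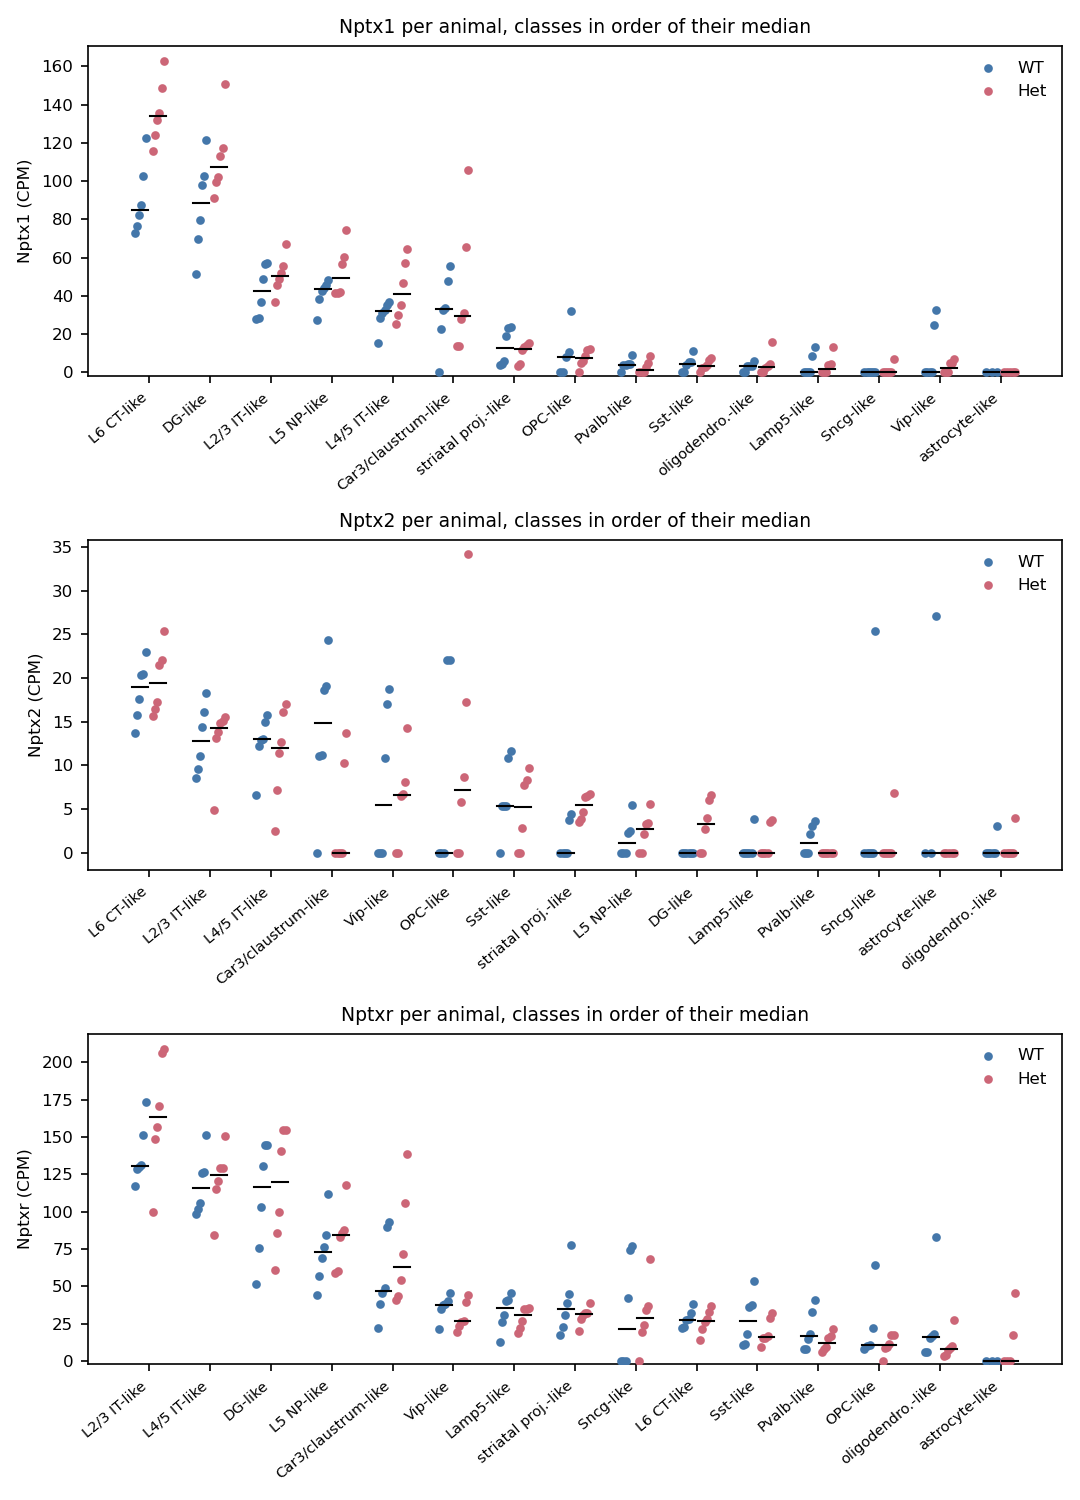
Nptx1, Nptx2 and Nptxr in CPM (vertical axis) for each animal in the 15 classes, in the order of the class medians over all animals, with WT in blue, MYT1L Het in red and black bars at the medians of each genotype. Over all animals L6 CT-like nuclei led for Nptx1 (median 119) and Nptx2 (19.0) and were number 10 for Nptxr (27.7), where L2/3 IT-like nuclei led (150); in WT alone DG-like nuclei led for Nptx1 (88.8 against 84.8 CPM).

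L6 CT-like nuclei were set against each of the other 5 excitatory classes within animals. These pairs were chosen after the levels had been seen, and for Nptx1 they hold the values the gene was chosen on, so the differences are descriptions without a test. Nptx1 was above its level in L2/3 IT-like nuclei by 1.27 ± 0.40 on the log2(CPM + 1) scale (SD), in L4/5 IT-like nuclei by 1.65 ± 0.45, in L5 NP-like nuclei by 1.25 ± 0.34 and in Car3/claustrum-like nuclei by 2.08 ± 1.82, each in 12 of 12 animals. The difference from DG-like nuclei was 0.19 ± 0.32, in 9 of 12 animals.

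For Nptx2 the differences, L6 CT-like minus the other class, ran from 0.57 ± 0.41 against L2/3 IT-like to 3.48 ± 1.25 against DG-like nuclei, with at least 11 of 12 animals on that side for each class. The difference from Car3/claustrum-like nuclei, 1.98 ± 2.09, was 0.25 in the wider set of nuclei. For Nptxr all 5 differences were negative. They were −2.44 ± 0.29 against L2/3 IT-like, −2.11 ± 0.35 against L4/5 IT-like, −1.95 ± 0.62 against DG-like and −1.46 ± 0.34 against L5 NP-like nuclei, each in 12 of 12 animals. Against Car3/claustrum-like nuclei the difference was −1.11 ± 0.91, in 11 of 12 animals.

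**Figure D2:**
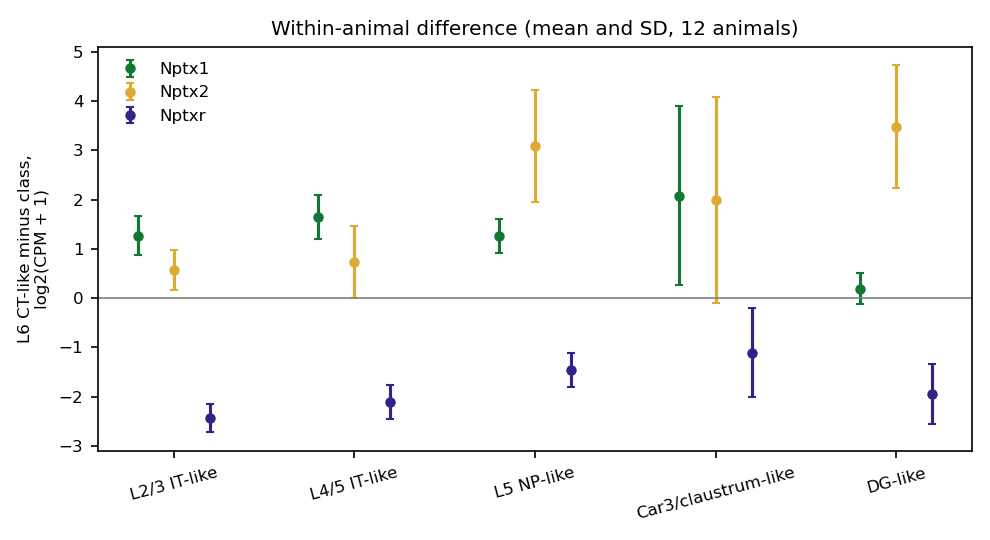
Within-animal difference, L6 CT-like nuclei minus another excitatory class, on the log2(CPM + 1) scale (vertical axis), as the mean and SD over 12 animals for Nptx1, Nptx2 and Nptxr. Nptx1 and Nptx2 lie above 0 against all 5 classes, with Nptx1 near 0 only against DG-like nuclei (0.19), and Nptxr lies below 0 against all 5, from −2.44 to −1.11.

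Across the 15 classes, the mean log2(CPM + 1) in WT animals was correlated with r = 0.77 between Nptx1 and Nptxr, 0.43 between Nptx1 and Nptx2 and 0.27 between Nptx2 and Nptxr. These values are descriptions over 15 classes from the same animals. Among 10130 genes, the pattern most like that of Nptx1 was that of Neurod2, a transcription factor of excitatory neurons (r = 0.94), followed by Gm14636 (0.92), Nrgn, which encodes the calmodulin-binding neurogranin (0.91), Kcnmb4, an auxiliary subunit of BK potassium channels (0.90), and Gm21955 (0.90). For Nptx2 the closest were Gm13601 (0.83), Mapk11, a p38 kinase (0.81), Homer1, a scaffold of the postsynaptic density (0.79), Gm35161 (0.78) and Ppm1g (0.77). For Nptxr they were Ltbp4 (0.96), Zfp821 (0.93), Numbl (0.92), the ubiquitin ligase gene Hace1 (0.92) and Slc16a7, which encodes a monocarboxylate transporter (0.92).

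In L6 CT-like nuclei, Nptx1 was 72.8, 84.8 and 123 CPM in the lowest, median and highest WT animal and 116, 134 and 163 CPM in the lowest, median and highest MYT1L Het animal. The means were 90.7 ± 18.8 and 137 ± 17.0 CPM (SD, n = 6 each). The groups touched at 1 point: 5 of 6 Het animals lay above every WT animal, and Het male 1 (116 CPM) lay below WT male 2 (123 CPM). The fitted log2 fold change was 0.58 (SE 0.11, edgeR), on 517 UMIs in WT and 1186 in Het. Leaving out 1 animal at a time gave 0.53 to 0.68. This is the contrast that led to the choice of the gene. In the whole fit, 64 of 8329 genes, 0.768%, were called, which here takes an adjusted p under 0.05 (edgeR quasi-likelihood test) together with a log2 fold change of more than 0.2 in either direction, 38 of them higher in Het.

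The 3 clusters that make up the class hold the same nuclei on which the gene was chosen. Their values are descriptions without a test and add no separate evidence. In each of the 3 the Het mean was above the WT mean. In cluster 0 (2516 nuclei) the mean of Nptx1 was 90.3 ± 16.3 CPM in WT and 144 ± 22.0 CPM in Het (log2 fold change 0.67, SE 0.12). In cluster 4 (1165 nuclei) the means were 101 ± 26.7 and 142 ± 33.5 CPM (0.49, SE 0.17), and in cluster 14 (561 nuclei) 63.5 ± 33.1 and 91.0 ± 26.4 CPM (0.55, SE 0.29). Cluster 14 had as many markers of the Car3/claustrum panel as of the L6 CT panel among its leading genes. The ratio of the Het mean to the WT mean was 0.78 on the log2 scale in females and 0.42 in males.

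Counted as nuclei, 24.3% ± 4.60 of L6 CT-like nuclei of WT animals and 35.0% ± 3.42 of those of MYT1L Het animals had an Nptx1 UMI (SD over 6 animals each, median depth 3259 and 3353 UMIs per nucleus). After each nucleus was thinned to 1500 UMIs the shares were 13.3% ± 2.98 and 17.6% ± 1.90. In oligodendrocyte-like nuclei the thinned shares were 0.725% ± 0.630 and 0.815% ± 0.957, at median depths of 2582 and 2429 UMIs. These nuclei were taken as a gauge of free RNA, and that use was not tested. The broad excitatory panel summed to 867 to 1057 CPM in the L6 CT-like sums of WT animals and to 928 to 1080 in those of Het animals. The astrocyte panel, of 9 genes, summed to 120 to 166 CPM in WT and to 107 to 122 CPM in Het, with a lower median in Het for 7 of the 9 genes, and its part in the result was not tested. Most of that sum was Slc4a4 (median 76.6 CPM in WT and 74.7 in Het), no gene of the panel was at 0 in every animal, and Aqp4, a defining astrocyte marker, had medians of 0.561 and 0 CPM. No Nptx1 UMI was counted in the astrocyte-like nuclei themselves. They were few (39 in WT and 95 in Het), and that count allows up to 29.9 CPM in WT and 13.4 CPM in Het. The oligodendrocyte panel (35.6 to 101 CPM in WT, 60.5 to 74.4 in Het), the OPC panel (73.0 to 134 and 96.7 to 143) and the microglia panel (24.4 to 50.3 and 28.7 to 45.1) overlapped between the genotypes.

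Nptx1 was then measured in the excitatory nuclei outside L6 CT, which the choice of the gene had not used. This sum, added after the data had been seen, held 15721 nuclei and left out L6 CT-like nuclei and 3 unnamed clusters with L6 CT as their best panel. Nptx1 was 39.3, 47.2 and 52.2 CPM in the lowest, median and highest WT animal and 50.3, 64.4 and 67.6 CPM in the lowest, median and highest Het animal. Again 5 of 6 Het animals lay above every WT animal, and the sixth was Het male 1. The log2 fold change was 0.38 (SE 0.09, 95% interval 0.19 to 0.57), with an unadjusted p of 0.000405 and an adjusted p of 0.268 over 13004 genes (edgeR quasi-likelihood test), so Nptx1 was not called. In that fit 0 genes (0.0%) were called, and 857 had an unadjusted p under 0.05. DESeq2 called Nptx1 on the same sums (0.38, adjusted p = 0.0244), in a fit that called 28 of the 13004 genes, 0.215%. Leaving out 1 animal gave 0.33 to 0.43. The log2 fold change was 0.42 (SE 0.11) in all nuclei and 0.49 (SE 0.08) in all excitatory nuclei, sums that hold the L6 CT nuclei and were not tested. In sums over many classes, more nuclei of a class and more RNA per nucleus cannot be told apart.

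**Figure D3:**
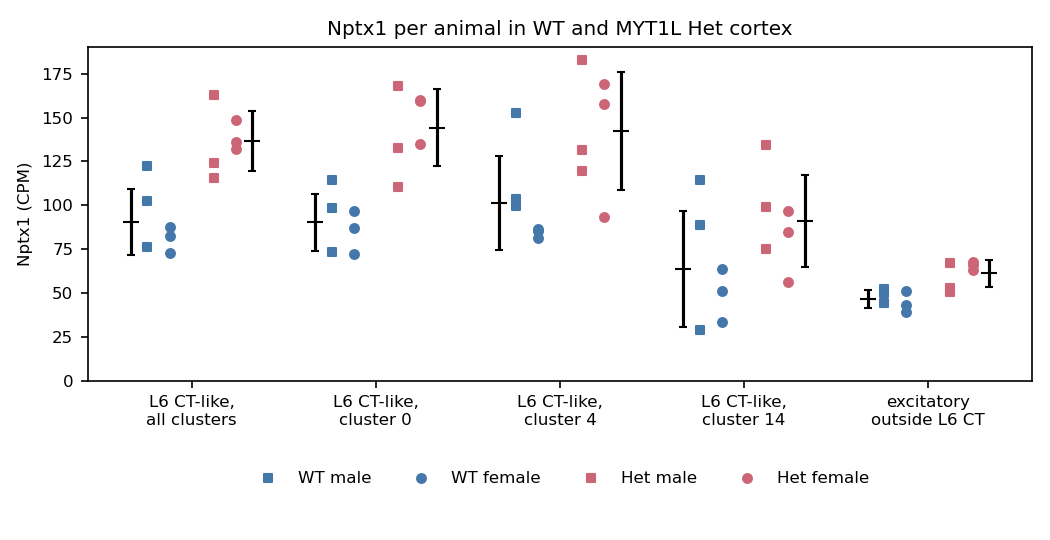
Nptx1 in CPM (vertical axis, from 0) per animal in L6 CT-like nuclei, in their 3 clusters and in the excitatory nuclei outside L6 CT, with WT in blue, MYT1L Het in red, squares for males, circles for females and black bars for the mean and SD. The Het mean lies above the WT mean in every sum shown, 137 against 90.7 CPM in L6 CT-like nuclei and 61.1 against 46.6 outside them.

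Single excitatory classes held fewer Nptx1 UMIs and gave wider intervals. In L4/5 IT-like nuclei Nptx1 was 15.5, 31.9 and 36.7 CPM in the lowest, median and highest WT animal and 25.1, 41.0 and 64.4 CPM in the Het animals, with 3 of 6 Het animals above every WT animal. The log2 fold change was 0.50 (SE 0.22, 95% interval 0.05 to 0.94), at an unadjusted p of 0.0306 and an adjusted p of 0.540, in a fit where 0.138% of genes were called. In DG-like nuclei it was 51.2, 88.8 and 121 CPM in WT and 91.0, 108 and 151 CPM in Het, with a log2 fold change of 0.39 (SE 0.20, −0.02 to 0.80, adjusted p = 0.684, edgeR, 0.0690% of genes called). In L5 NP-like nuclei the log2 fold change was 0.33 (SE 0.21, −0.10 to 0.77, adjusted p = 0.848, edgeR, 0.0241% of genes called). In L2/3 IT-like nuclei it was 0.23 (SE 0.18, −0.13 to 0.59, adjusted p = 0.803, edgeR, 0.0% of genes called). Nptx1 was called in none of these 4 classes. Each interval holds the 0.38 of the excitatory sum, but that sum contains these nuclei. All intervals but that of L4/5 IT-like nuclei also hold 0.

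The largest unnamed excitatory cluster tested, cluster 3 (1486 nuclei, led by Bmpr1b, Dnah14 and Blnk, with L6 IT as its best panel), also held much Nptx1. Its WT animals ranged from 63.6 to 93.1 CPM (median 78.2), and its Het animals from 65.5 to 118 CPM (median 112). There 5 of 6 Het animals lay above every WT animal and Het male 1 did not. The log2 fold change was 0.47 (SE 0.15, unadjusted p = 0.00441, adjusted p = 0.452, edgeR, 0.0383% of genes called). Over all 13 unnamed clusters of at least 400 nuclei, 11 tests of a member were possible. None was called by edgeR or DESeq2, and 3 had an unadjusted p under 0.05: Nptx1 in cluster 3, and Nptxr in cluster 10 (0.49, SE 0.19) and in cluster 9 (0.45, SE 0.19, where 0.0902% of genes were called). How many of all genes in those fits were under that p is not given here. In all inhibitory nuclei Nptx1 was near its floor, 3.85 to 10.7 CPM in WT and 3.70 to 10.2 CPM in Het, with a log2 fold change of 0.01 (SE 0.26, −0.54 to 0.56, adjusted p of 1.00, edgeR, 0.254% of genes called).

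Nptx2 passed the filter on low counts in 2 classes. In L6 CT-like nuclei it was 13.7, 19.0 and 22.9 CPM in the lowest, median and highest WT animal and 15.6, 19.4 and 25.4 CPM in the Het animals. The genotypes overlapped over nearly the whole range, and the log2 fold change was 0.11 (SE 0.18, 95% interval −0.26 to 0.48, adjusted p = 0.922, edgeR). In L2/3 IT-like nuclei it was 8.56, 12.7 and 18.2 CPM in WT and 4.88, 14.3 and 15.5 CPM in Het, with a log2 fold change of 0.08 (SE 0.26, −0.45 to 0.62, adjusted p = 0.983, edgeR). In all excitatory nuclei the log2 fold change of Nptx2 was 0.13 (SE 0.13, −0.14 to 0.39, adjusted p = 0.875, edgeR, 0.0916% of genes called). In all inhibitory nuclei it was 0.33 (SE 0.31, −0.33 to 0.99, adjusted p = 0.956, edgeR, 0.254% of genes called).

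Nptxr was tested in 5 classes and called in none. In L6 CT-like nuclei it was 21.8, 27.7 and 38.0 CPM in the lowest, median and highest WT animal and 14.3, 27.0 and 36.5 CPM in the Het animals, a log2 fold change of −0.04 (SE 0.18, −0.41 to 0.34, adjusted p = 0.982, edgeR). In L2/3 IT-like nuclei, where its level was highest, it was 117, 131 and 173 CPM in WT and 99.9, 164 and 209 CPM in Het, a log2 fold change of 0.24 (SE 0.13, −0.02 to 0.50, adjusted p = 0.647, edgeR). Its log2 fold change was 0.02 in L4/5 IT-like nuclei (SE 0.12), 0.21 in L5 NP-like nuclei (SE 0.20) and 0.10 in DG-like nuclei (SE 0.22), with adjusted p of 0.991, 0.919 and 0.963 (edgeR). In all inhibitory nuclei it was −0.22 (SE 0.13, −0.50 to 0.06, adjusted p = 0.888, edgeR). Npcd, which shares exons with Nptxr, had a log2 fold change of −0.13 in all nuclei (SE 0.12, adjusted p = 0.956, edgeR).

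Of 45 combinations of a member and a class, 12 passed the filter on low counts. Outside Nptx1 in L6 CT-like nuclei there were 11, of which 0 were called by edgeR, 0 by DESeq2 and 1, Nptx1 in L4/5 IT-like nuclei, had an unadjusted p under 0.05. The fitted direction was higher in Het in 10 of the 11, but these values come from the same animals and are not independent of one another. Among these classes the median log2 fold change of all genes tested ran from −0.0037 (DG-like) to 0.0022 (L5 NP-like).

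**Figure D4:**
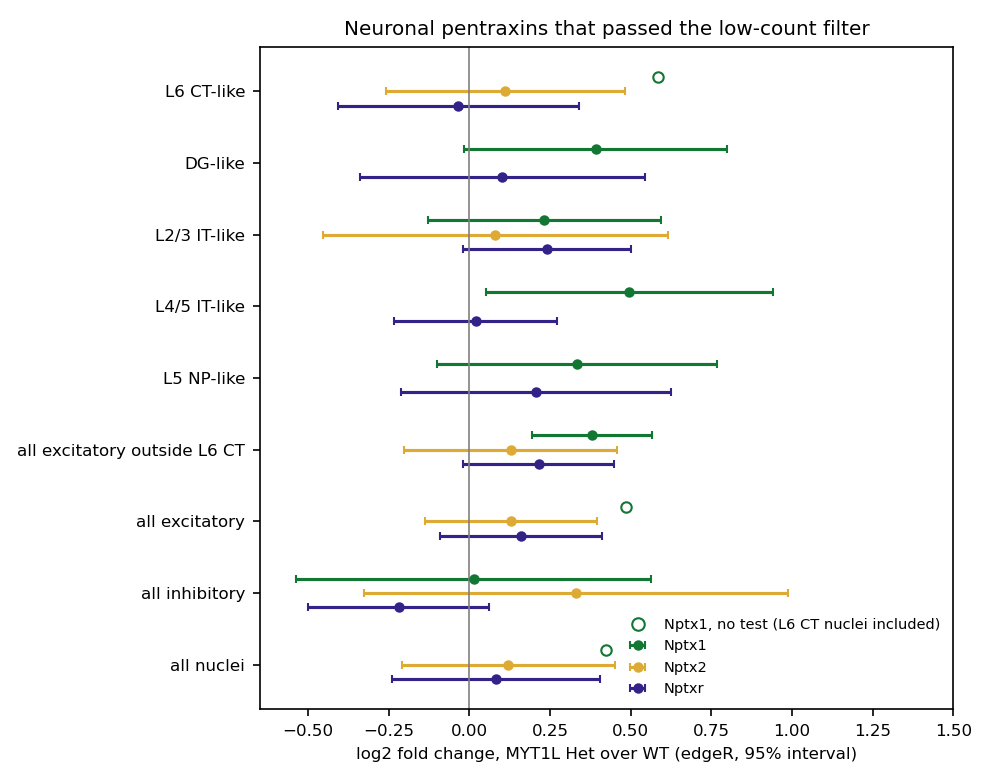
Log2 fold change, MYT1L Het over WT (horizontal axis), with 95% intervals from edgeR for the members that passed the low-count filter in each class or sum of nuclei. Open circles without an interval mark Nptx1 in the sums that hold L6 CT nuclei (0.58, 0.49 and 0.42), which were not tested, and of the other sums and classes shown Nptx1 in excitatory nuclei outside L6 CT (0.38) and in L4/5 IT-like nuclei (0.50) has an interval that lies above 0.

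In all nuclei outside L6 CT (27478 nuclei), Nptx1 was 24.3, 30.0 and 38.0 CPM in the lowest, median and highest WT animal and 28.4, 38.3 and 46.2 CPM in the Het animals, with 3 of 6 Het animals above every WT animal. The log2 fold change was 0.28 (SE 0.12, unadjusted p = 0.0342, adjusted p = 0.943, edgeR), in a fit with 0 genes called (0.0%) and 820 at an unadjusted p under 0.05. For the sexes, Nptx1 in excitatory nuclei outside L6 CT had a ratio of Het to WT means of 0.56 on the log2 scale in females and 0.22 in males. In L2/3 IT-like nuclei the ratio for Nptx1 was 0.58 in females and −0.05 in males. The same ratio for Nptxr was above 0 in females and below 0 in males in all excitatory nuclei (0.45 and −0.08), L4/5 IT-like nuclei (0.31 and −0.20), L5 NP-like nuclei (0.53 and −0.16) and DG-like nuclei (0.54 and −0.33). The signs were also opposite in all nuclei (0.38 and −0.13) and in all nuclei outside L6 CT (0.37 and −0.065). Among classes where Nptxr was not tested, they were opposite in Car3/claustrum-like (0.93 and −0.20) and Sst-like nuclei (0.235 and −1.30), among others. In all of these, values over both sexes combine opposite signs. The sexes had the same sign for Nptxr in L2/3 IT-like (0.48 and 0.03), excitatory outside L6 CT (0.45 and 0.03) and L6 CT-like nuclei (−0.04 and −0.14). Within the L6 CT-like class, cluster 4 had opposite signs (0.79 and −0.28). The interaction of sex and genotype was tested in 26 combinations of a member with a class, a sum of nuclei or unnamed cluster 3, without Nptx1 in L6 CT-like nuclei and in the sums that hold them. None was called (edgeR, lowest adjusted p = 0.688), and 3 had an unadjusted p under 0.05: Nptx1 in excitatory nuclei outside L6 CT, and Nptxr in those nuclei and in all excitatory nuclei. How many of all genes had an interaction under that p is not given here.

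Beside the members, 6 lists were read in the 15 classes: AMPA receptor subunits, other pentraxins, C1q-family organizers, matrix genes, proteases and activity-dependent genes. The lists held 52 genes, of which 33 were tested in at least 1 class, in 232 tests of a gene in a class. None was called by edgeR or DESeq2, and 16 of the 232 had an unadjusted p under 0.05 (edgeR). The share of all genes under that p in the same fits is not given here, so this count is not read as a result about the lists. The share of all genes called was 0.0693% in the fit of Pvalb-like, 0.0782% in that of Vip-like and 0.220% in that of Sncg-like nuclei, besides those given above. In L6 CT-like nuclei, the setting of the Nptx1 difference, the share of all genes called was 0.768% and the median log2 fold change of all genes was −0.0026.

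AMPA receptor subunits and their auxiliary subunits, the partners of the pentraxins, numbered 12 tested of 14 in L6 CT-like nuclei, with 0 called and a median log2 fold change of 0.03. The pore-forming subunits Gria1 (0.06, SE 0.07), Gria2 (−0.06, SE 0.07), Gria3 (−0.14, SE 0.08) and Gria4 (−0.03, SE 0.08) had adjusted p of 0.588 or more (edgeR). Cacng2, which encodes the auxiliary subunit stargazin, was the nearest to a call in that list (0.33, SE 0.10, adjusted p = 0.124, edgeR). It passed within cluster 4 of the L6 CT-like nuclei (0.65, adjusted p = 0.0130, edgeR, 0.827% of genes called there), in the wider set of nuclei (0.27, adjusted p = 0.0397, 1.14% of genes called), and when WT female 2 was left out (0.41, adjusted p = 0.0350, 0.748% of genes called).

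Activity-dependent genes, a group to which Nptx2 is known to belong, had 8 of 12 tested in L6 CT-like nuclei, with 0 called and a median log2 fold change of 0.18. Egr1, an immediate early transcription factor, was at 0.35 (SE 0.18, adjusted p = 0.530, edgeR), Homer1 at 0.32 (SE 0.17, adjusted p = 0.568) and Bdnf, a secreted neurotrophin, at −0.27 (SE 0.24, adjusted p = 0.781). The list's median was 0.30 in L2/3 IT-like and in L4/5 IT-like nuclei, with 6 of 12 genes tested and 0 called in each.

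Genes of the perineuronal net and related matrix, which surrounds Pvalb interneurons above all, had 3 of 9 tested in L6 CT-like nuclei and a median of −0.01, with the proteoglycan gene Vcan at −0.75 (SE 0.24, adjusted p = 0.160, edgeR). C1q-family synaptic organizers and their receptors, another family of secreted proteins at synapses with their partners, had 0 genes called, and the receptor gene Grid1 was at 0.07 (SE 0.08, adjusted p = 0.817, edgeR). Proteases that shed or remodel, among them Adam17, which encodes a sheddase known to cleave NPTXR, had 2 of 3 tested, Adam17 (0.24, SE 0.17, adjusted p = 0.728, edgeR) and Adam10 (−0.06, SE 0.09, adjusted p = 0.889). The other pentraxins could not be tested in any class: Crp had 159 UMIs in all 33116 nuclei, Ptx4 15.3, Ptx3 5.5 and Apcs 3.

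Myt1l itself had a log2 fold change of 0.14 in all nuclei (SE 0.05, adjusted p = 0.696, edgeR) and of 0.23 in L6 CT-like nuclei (SE 0.06, adjusted p = 0.0713). The mutation is a frameshift and not a deletion of the gene, and whether the mutant transcript is kept was not tested, so these levels were not used to check the genotype labels.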

How the data were processed

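The deposited matrices hold expected counts of UMIs per gene and nucleus, made by the authors with ScaleRna on mm10, without normalization; 92.6% of entries were whole, since a UMI that fits several genes is divided. The submitters' processing notes name Seurat 4.3.0 and DESeq2 1.38.3. Nuclei were kept with the study's limits, namely 300 to 3000 genes, 800 to 6000 UMIs, log genes over log UMIs no lower than 0.9 and no more than 1% of UMIs from mitochondria, and the 5% with the highest Scrublet scores per animal were removed as doublets (scanpy 1.11.5). The deposited barcodes were already fewer than the nuclei the study reported for P21, and the lowest held 1500 UMIs. The nuclei kept here are therefore far fewer than the study's and are not its set. Deposited totals were 23425407 to 59947430 UMIs per animal, and 683431 to 2137215 UMIs in the L6 CT-like sums. Clusters (leidenalg 0.10.2, without the pentraxins and Myt1l) were named from marker panels by a rule set after the clusters had been seen and before the genotypes were compared. UMIs were summed per animal and class (at least 10 nuclei), rounded, and tested with edgeR 4.0.16 (TMM, filterByExpr, genotype only, quasi-likelihood test with Benjamini-Hochberg adjustment over all genes of a class), in code tested on simulated data. The limits for a call were 0.05 for the adjusted p and 0.2 for the size of the log2 fold change. Classes were compared within animals by exact two-sided paired permutation of log2(CPM + 1). Coding sequences were aligned with mafft 7.526. The text names the members, list genes that were called in an alternative or were chosen, after their values were seen, to show what a list holds, and the 5 genes with the pattern most like each member's. Astrocyte-like nuclei had 8 animals and OPC-like nuclei 11. The members and lists were chosen with earlier results of these data known. Alternatives were DESeq2 1.42.0, other normalizations and filters, other class definitions, sex as a covariate, a replicate block and leaving out each animal. The other ages of the study were not analysed here. The values of 1 list gene are not reported here.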

Additional observations from a re-analysis of the deposited data

Results flagged for a closer look

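In 58 groups of 6 animals (a member, a class or sum of nuclei and a genotype), 3 had 1 animal that stood apart from the others by Dixon's criterion, which chance gives in about 1 group in 20. Het male 1 had the lowest Nptx2 of the MYT1L Het animals in L2/3 IT-like nuclei, 4.88 CPM, with the next at 13.1 CPM. The same animal had the lowest Nptx1 of the Het animals in unnamed cluster 3, 65.5 CPM, with the next at 101 CPM. WT male 1 had the highest Nptxr of the WT animals in all inhibitory nuclei, 46.2 CPM, with the next at 31.8 CPM.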

How the results depend on the processing

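The direction of Nptx1 in L6 CT-like nuclei was fixed by the choice of the gene, and its value was between 0.53 and 0.68 when 1 animal was left out. Some values near 0 changed sign. Nptx1 in all inhibitory nuclei was −0.104 without doublet removal, −0.0216 in the wider set of nuclei (no upper limits and no ratio limit) and −0.148 to 0.211 when 1 animal was left out. Nptxr in L6 CT-like nuclei was 0.0013 with library size only, 0.0541 under the stricter class definition and −0.167 to 0.058 when 1 animal was left out. Leaving out 1 animal gave −0.0178 to 0.181 for Nptxr in all nuclei, −0.0038 to 0.20 for it outside L6 CT, −0.0053 to 0.21 in DG-like and −0.0474 to 0.093 in L4/5 IT-like nuclei, and for Nptx2 −0.0761 to 0.222 in L2/3 IT-like nuclei, −0.001 to 0.22 in excitatory nuclei outside L6 CT and −0.0189 to 0.202 in all nuclei outside L6 CT. Without a change of sign, it gave 0.0406 to 0.353 for Nptxr in L5 NP-like nuclei (lowest without Het male 2, highest without WT male 1), 0.0933 to 0.25 in all excitatory nuclei (lowest without Het male 2, highest without Het male 1), 0.113 to 0.294 in unnamed cluster 3 (lowest without Het female 3) and −0.285 to −0.107 in all inhibitory nuclei (−0.107 without WT male 1), for Nptx1 0.0998 to 0.326 in L2/3 IT-like nuclei (lowest without WT female 3) and 0.212 to 0.414 in L5 NP-like nuclei (lowest without WT female 3), and for Nptx2 0.0103 to 0.188 in all nuclei (lowest without Het male 2, highest without Het male 1), 0.155 to 0.489 in all inhibitory nuclei (lowest without Het female 2), 0.031 to 0.179 in L6 CT-like nuclei (lowest without WT male 3, highest without WT male 2) and 0.039 to 0.206 in all excitatory nuclei (lowest without Het male 2, highest without WT male 2). The cause was not tested.

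The count of list genes called, 0, became 1 without the filter on low counts (Homer1 in L6 CT-like nuclei) and 1 in the wider set of nuclei (Cacng2), and was 0 to 1 when 1 animal was left out. Without the filter the edgeR fit of L6 CT-like nuclei had 307700 degrees of freedom for 12 animals, so its p-values do not measure the spread between animals, and no call of that setting is used. Neighbouring classes that differed fell from 2 to 1 for Nptx1 under the stricter class definition and from 1 to 0 for Nptx2 in the wider set of nuclei, and were 1 to 2 for Nptxr and 2 to 3 for Nptx1 when 1 animal was left out (3 without WT male 2). Replicate numbers did not pair the animals: same-numbered WT and Het animals correlated at −0.54 to 0.07, and none correlated best with its own number. With the replicate block, Nptx2 in L2/3 IT-like nuclei was −0.0241, Nptx1 outside L6 CT was 0.37 in excitatory nuclei, and no call of a member or list gene in a class was added. Nptx2 passed the low-count filter in 2 of 15 classes, and its change in the others was not tested.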
